A study of Macaca mulatta with 449 samples.

Results

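The data described here are the RNA levels of 9 receptors for peptides that control appetite and arousal in the rhesus macaque brain: the melanin-concentrating hormone receptors MCHR1 and MCHR2, the melanocortin receptor MC4R, the neuropeptide Y receptors NPY1R, NPY2R and NPY5R, the leptin receptor LEPR and the orexin receptors HCRTR1 and HCRTR2. They were chosen by gene symbol from the 30807 genes of the count table, in which the genes carry Ensembl identifiers (MCHR1 ENSMMUG00000017371, MCHR2 ENSMMUG00000000808, MC4R ENSMMUG00000017258, NPY1R ENSMMUG00000020241, NPY2R ENSMMUG00000014185, NPY5R ENSMMUG00000020242, LEPR ENSMMUG00000003265, HCRTR1 ENSMMUG00000023396, HCRTR2 ENSMMUG00000001395). Of 10 symbols asked for, 9 matched a row, and MC3R was not analysed here. Ribosomal RNA-depleted RNA was sequenced from 51 brain sub-regions of 8 healthy, untreated, group-housed animals, giving 408 samples with 1 sample of each sub-region per animal. The animals were 4 young (Rhesus 4, 3.2 years, female; Rhesus 7, 4 years, male; Rhesus 8, 3.8 years, male; Rhesus 10, 5 years, female) and 4 mid-aged (Rhesus 2 and Rhesus 3, 10 years, male; Rhesus 6, 10 years, female; Rhesus 11, 9.8 years, female). The sub-regions fell into 16 region groups: the cerebral cortex (31 sub-regions), hippocampus (HIP, with DG, CA1 and CA3), striatum (STR, with the accumbens nucleus ACb, caudate nucleus CN and putamen PUT), cerebellum (CB, cortex and vermis), amygdala (AMY), entorhinal and perirhinal cortex (PA), globus pallidus (GP), olfactory bulb (OB), thalamus (THA), hypothalamus (HTHA), ventral tegmental area (VTA), substantia nigra (SN), pons (PON), medulla oblongata (MO), corpus callosum (CC) and pituitary (PIT). Counts of sub-regions were summed within a region group and animal. Between 7784678 and 31083490 reads were counted on genes per sample. Levels are given in CPM, the count of a gene relative to the TMM-scaled total of its library, and a value after ± is the SD over 8 animals beside a level and the SE beside a log2 fold change (log2FC). Since lengths of the transcripts were not used, each receptor is compared only with itself. The samples were bulk tissue, in which fewer cells of a type and less RNA per cell cannot be told apart.

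All of these receptors except LEPR are G protein-coupled receptors best known in neurons. Melanin-concentrating hormone and the orexins (hypocretins) are made by neurons of the lateral hypothalamus that project widely, and they are known for their part in feeding, sleep and wakefulness. Leptin from fat tissue acts through LEPR, a cytokine receptor that signals through JAK2 and STAT3, on hypothalamic neurons that make POMC, whose product alpha-MSH activates MC4R, or that make neuropeptide Y and AgRP, which drive feeding. NPY1R and NPY5R are mostly postsynaptic receptors of neuropeptide Y, and NPY2R is mostly a presynaptic autoreceptor.

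Some libraries stood apart in the markers of their tissue. In HTHA, the summed level of 3 markers of cortical excitatory neurons (NEUROD6, TBR1 and SLC17A7) was 546 CPM in Rhesus 6 and 2.48 to 11.4 CPM in the other animals. The hypothalamic peptide genes HCRT and PMCH reached 2.74 and 1.69 CPM in the HTHA sample of Rhesus 11, against medians of 168 and 535 CPM over the 8 animals. The same cortical markers summed to 273 CPM in the ACb sample of Rhesus 10 and to 135 CPM in the PUT sample of Rhesus 3, against medians of 7.46 and 2.04 CPM. In MO, 6 neuronal markers summed to 259.6 CPM in Rhesus 6 and to between 3552 and 6855 CPM in the others. The part of these differences in the receptor levels was not tested, and values without these animals stand beside the contrast of HTHA with the cortex, the comparison within STR and the MC4R results in MO.

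The receptors differed in where they were expressed, as the plot of levels in the 16 region groups shows. Each region group was set against the mean of the other 15 with edgeR's quasi-likelihood test, with the animal as a block. That mean is one of fitted log levels, which groups near 0 pull down. A group called higher can thus lie below the plain mean CPM of the others. Among such cases were NPY2R in the cortex and MC4R in MO and AMY. A difference was called at FDR < 0.05 and an absolute log2FC above 1. Of 144 pairs of a receptor and a region group, 39 (27.1%) were called higher and 34 (23.6%) lower, while over the 16829 genes tested 9.27% of such pairs were called higher and 7.94% lower. MC4R had the most calls in the higher direction (7 groups), and HCRTR1 had none in either direction. When a level over 2-fold above each other group was asked for, 2 of 9 receptors were called, MCHR2 for the cortex and NPY1R for HIP, against 11.5% of all genes. MC4R passed for SN as well without Rhesus 2 or Rhesus 8 (gap to HTHA of 1.10 and 1.03 on the log2 scale), and NPY2R for HIP without Rhesus 6 (1.01). With the groups of each receptor put in the order of their means, the ranges of the 8 animals overlapped between neighbours throughout, except that all animals had more NPY1R in HIP than any had in STR, the next group. How often neighbours are apart for other genes is not given here, so this is a description only.

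**Figure D1:**
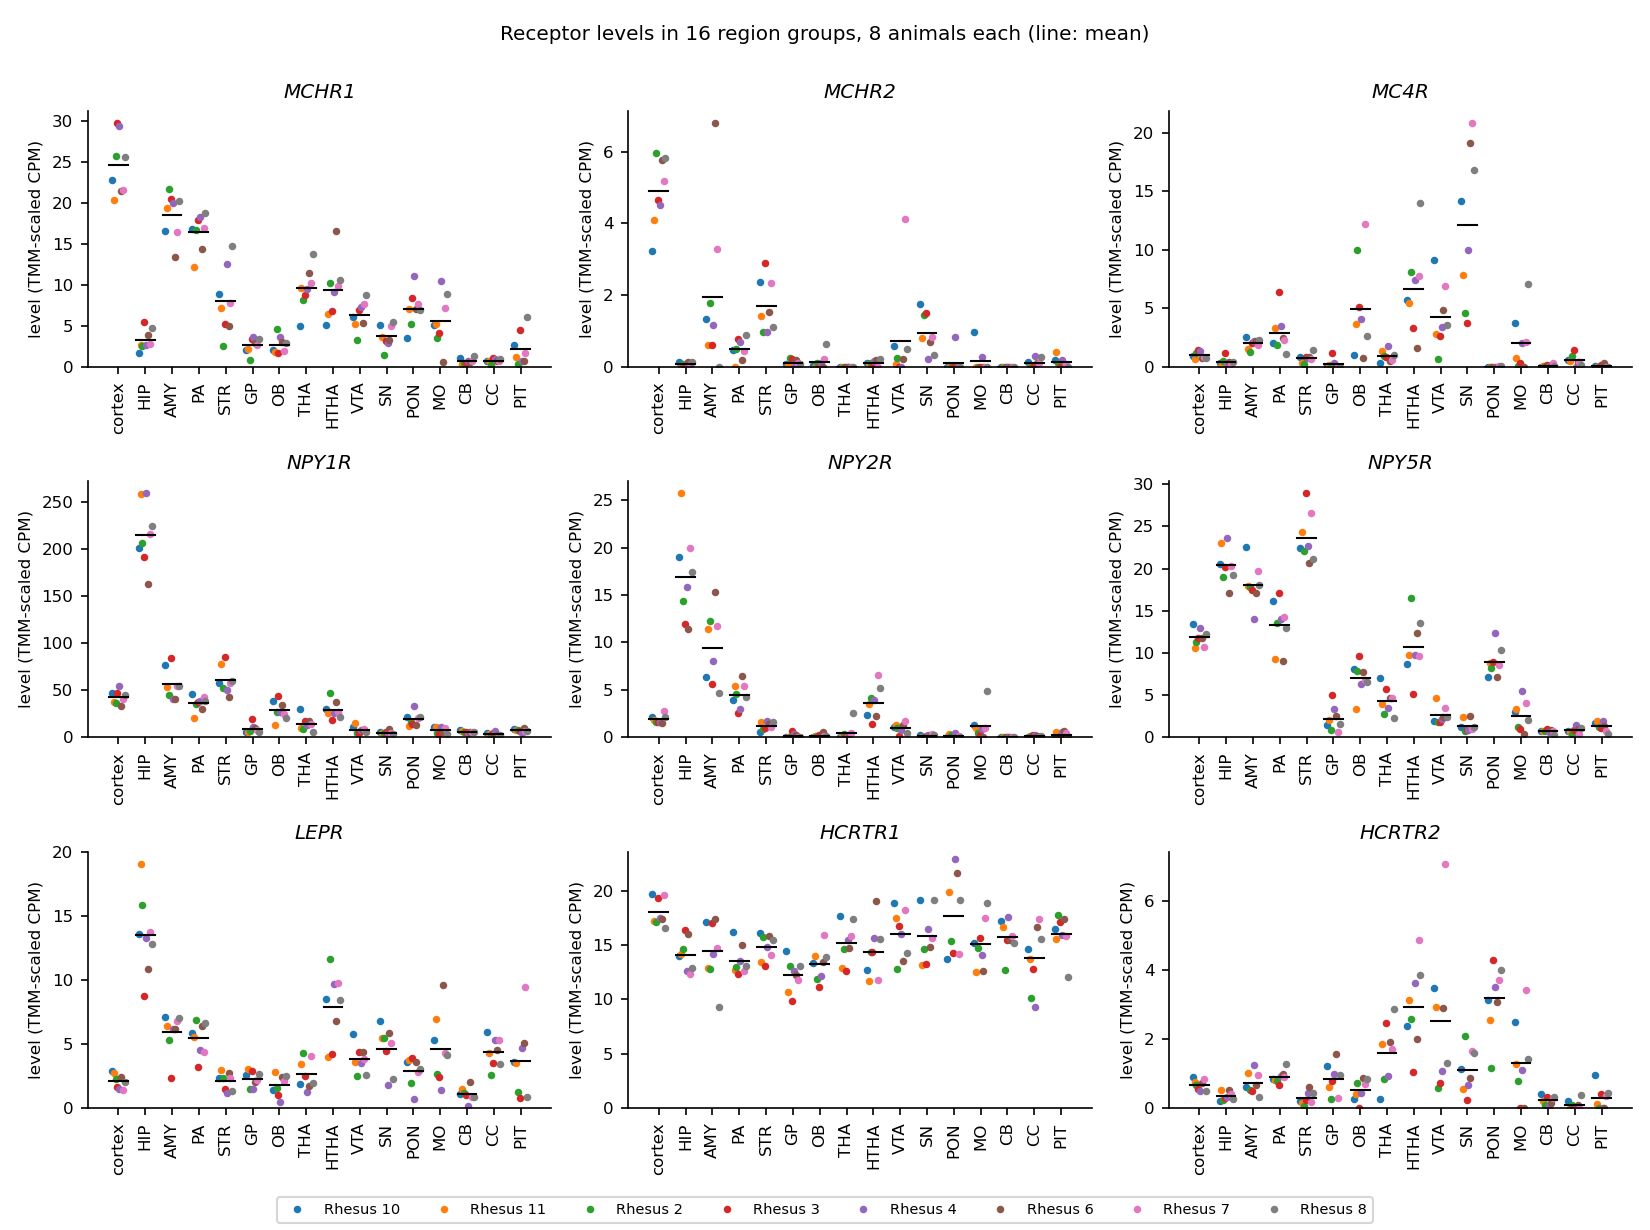
Level of each receptor (vertical axis, TMM-scaled CPM, linear and starting at 0, with its own range in each panel) in 16 region groups (horizontal axis), 1 point per animal, with a line at the mean of 8 animals. MCHR1 and MCHR2 were highest in the cortex, NPY1R, NPY2R and LEPR in HIP, NPY5R in STR, MC4R in SN and HCRTR2 in PON, while HCRTR1 lay between 9.27 and 22.9 CPM in every animal and group.

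MCHR1, the receptor for melanin-concentrating hormone found in all mammals, was highest in the cortex, where the animals lay at 20.4 to 29.7 CPM (median 24.2). It was also high in AMY, at 13.4 to 21.7 CPM (median 19.7), and in PA, at 12.2 to 18.7 CPM (median 16.8). AMY overlapped with both, while every PA value lay below every cortical one, and each group was called higher than the mean of the others, with log2FC of 2.48 ± 0.14 (FDR = 2.79e-33), 2.06 ± 0.15 (FDR = 1.96e-23) and 1.86 ± 0.16 (FDR = 2.66e-20). The mean levels in the other groups, in descending order, were 9.56 ± 2.51 in THA, 9.34 ± 3.51 in HTHA, 7.96 ± 4.02 in STR, 7.09 ± 2.2 in PON, 6.33 ± 1.71 in VTA, 5.62 ± 3.14 in MO and 3.73 ± 1.35 in SN. Below these came 3.31 ± 1.28 in HIP, 2.72 ± 1.06 in OB, 2.64 ± 0.918 in GP, 2.22 ± 2.06 in PIT, 0.74 ± 0.259 in CC and 0.724 ± 0.313 in CB. CB and CC, at most 1.32 CPM in every animal, were the groups with the least MCHR1, with log2FC of -2.97 ± 0.25 (FDR = 4.10e-20) and -2.95 ± 0.28 (FDR = 2.23e-17), and PIT was called lower as well. THA passed narrowly as higher, with 1.01 ± 0.17 (FDR = 2.04e-07), and lost its call without Rhesus 2 (log2FC 0.99, FDR = 2.51e-07) or Rhesus 6 (log2FC 0.95, FDR = 1.37e-06) or Rhesus 11 (log2FC 0.97, FDR = 1.29e-05).

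MCHR2 is another receptor for the same peptide, which primates have and rodents lack. It was highest in the cortex, at 3.23 to 5.97 CPM (median 4.92), and the fitted level there was over 2-fold above each other group. In AMY, next by its mean, the animals spread over 0 to 6.8 CPM (median 1.24): Rhesus 6 was highest and Rhesus 8 had no count. The mean, 1.94 CPM, was 1.25 CPM without Rhesus 6. STR lay at 0.964 to 2.9 CPM (median 1.48), with every animal below every cortical value. Its highest values were those of Rhesus 3 (2.9 CPM), whose PUT sample held cortical markers, and Rhesus 10 (2.36 CPM), whose ACb sample did. The part of these markers in the STR level was not tested. SN reached 0.22 to 1.75 CPM (median 0.809). The VTA mean of 0.717 CPM rested on Rhesus 7, at 4.13 CPM, while the other animals had 0 to 0.578 CPM, and the call in VTA was lost without Rhesus 7 (log2FC 0.40, FDR = 0.439). In PA it was 0.489 ± 0.295 CPM, and in MO, OB, PIT, GP, CC, HTHA, PON and HIP the means were at most 0.155 CPM. Not a read was counted on MCHR2 in CB or THA. A total of 3 counts over the 8 animals would have been 0.0162 CPM in CB and 0.0308 CPM in THA, so the cortex was at least 302-fold above CB and at least 159-fold above THA. These limits cover counting error only. Because the fitted level of a group with no count depends on the prior count of the fit, the contrast with the mean of the others was also fitted without CB and THA, an alternative chosen after seeing the data. The log2FC of MCHR2 was then 4.30 in the cortex (FDR = 3.32e-29), 2.71 in AMY (FDR = 2.89e-10), 2.65 in STR (FDR = 1.75e-12) and 1.76 in SN (FDR = 1.84e-04). Its calls in PA and VTA were lost in that fit, with FDR of 0.295 and 0.0551.

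MC4R, the melanocortin receptor whose loss causes obesity, was highest in SN, at 3.79 to 20.8 CPM (median 12.1). HTHA followed at 1.6 to 14 CPM (median 6.57), then OB at 0.772 to 12.2 CPM (median 3.89) and VTA at 0.704 to 9.14 CPM (median 3.51). The animals spread widely within each of these groups, and the groups overlapped. Each was called higher than the mean of the others, with log2FC of 4.04 ± 0.25 (FDR = 3.40e-29) in SN, 3.09 ± 0.27 (FDR = 1.15e-18) in HTHA, 2.66 ± 0.29 (FDR = 1.70e-14) in OB and 2.41 ± 0.30 (FDR = 2.09e-11) in VTA. Rhesus 3 and Rhesus 2 had the lowest MC4R of the SN samples, at 3.79 and 4.6 CPM, and also the lowest summed level of the dopamine neuron markers TH, SLC6A3 and DDC there, at 1329 and 1555 CPM against 2066 to 3022 CPM in the others. In VTA, Rhesus 2 was again lowest in both, with 0.704 CPM of MC4R and 25.8 CPM of the markers, but the order of the other animals differed. Rhesus 3 had 355 CPM of the markers and 2.63 CPM of MC4R there, and Rhesus 7 had 140.4 and 6.89 CPM. The part of these markers in the MC4R level was not tested. PA, MO and AMY were also called higher on the log scale of the fit, at 2.85 ± 1.61, 2.03 ± 2.41 and 1.99 ± 0.422 CPM. The call in MO was lost without Rhesus 8 (log2FC 0.61, FDR = 0.192) or Rhesus 10 (log2FC 0.93, FDR = 0.0369). The log2FC in MO was 1.39 without Rhesus 6 (FDR = 4.53e-04). The mean in MO was 1.32 CPM without Rhesus 8, and the mean in GP 0.102 CPM without Rhesus 3. The remaining means were 1.0 ± 0.305 in cortex, 0.924 ± 0.491 in THA, 0.748 ± 0.382 in STR, 0.547 ± 0.457 in CC, 0.44 ± 0.317 in HIP and 0.241 ± 0.405 in GP. CB and PIT had at most 0.0935 CPM. CB, GP, HIP, PIT and PON were called lower, HIP not without Rhesus 7 (log2FC -0.98, FDR = 0.0846) or Rhesus 8 (log2FC -1.05, FDR = 0.0557). In PON only 2 reads were counted on MC4R over the 8 animals, and 6 animals had none.

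NPY1R was most abundant in HIP, where the animals lay at 163 to 259 CPM (median 211). The next group, STR, lay at 42.3 to 85.3 CPM (median 57.4), so no HIP value, a sum over DG, CA1 and CA3, fell into the range of any other group. Single CA1 and CA3 samples did, as their ranges given below show. The log2FC of HIP against the mean of the others was 3.85 ± 0.11 (FDR = 7.91e-60), and its level was over 2-fold above each other group. AMY, the cortex and PA followed with 56 ± 16.1, 42.8 ± 6.88 and 36.2 ± 8.0 CPM, and all 3 were called higher, as was STR. NPY1R then stood at 29.2 ± 8.93 in HTHA, 28.6 ± 9.88 in OB, 19 ± 6.87 in PON and 14.6 ± 7.32 in THA, which were not called. The lowest groups were 9.14 ± 4.6 in GP, 8.1 ± 3.72 in VTA, 7.32 ± 3.5 in MO, 7.26 ± 1.56 in PIT, 5.85 ± 0.791 in CB, 5.04 ± 1.64 in SN and 3.54 ± 1.72 in CC, all called lower. GP lost its call without Rhesus 10 (log2FC -0.94, FDR = 1.69e-05) or Rhesus 11 (log2FC -0.97, FDR = 3.16e-06).

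NPY5R, whose gene model overlaps that of NPY1R in the RefSeq annotation of the assembly T2T-MMU8v2.0, ran largely with it over the 51 sub-regions (Pearson r = 0.93 of mean log2(CPM + 1), a description over sub-regions that share animals). The strand setting of the counting is not given in the sources used here, so reads in the shared part of the 2 genes could not be assigned with certainty. The order of the leading groups differed from NPY1R: NPY5R was highest in STR at 20.7 to 28.9 CPM (median 22.5), with HIP at 17.2 to 23.6 CPM (median 20.3) and AMY at 14.1 to 22.6 CPM (median 17.9). These 3 groups overlapped. Their log2FC against the mean of the others were 2.48 ± 0.13 (FDR = 2.93e-36), 2.25 ± 0.13 (FDR = 5.27e-32) and 2.08 ± 0.14 (FDR = 9.51e-27). PA, the cortex and HTHA were called higher as well, at 13.3 ± 2.9, 11.9 ± 0.973 and 10.7 ± 3.42 CPM. PON, OB and THA had 8.94 ± 1.74, 7.05 ± 1.84 and 4.33 ± 1.57 CPM. The lowest means were 2.6 ± 0.989 in VTA, 2.57 ± 1.73 in MO, 2.17 ± 1.42 in GP, 1.35 ± 0.715 in SN, 1.32 ± 0.548 in PIT, 0.82 ± 0.338 in CC and 0.706 ± 0.23 in CB, and CB, CC, GP, PIT and SN were called lower.

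NPY2R had the narrowest distribution of the 3 neuropeptide Y receptors, with a mean below 1 CPM in 9 of 16 region groups. It was highest in HIP, at 11.4 to 25.7 CPM (median 16.6), and next in AMY, at 4.65 to 15.3 CPM (median 9.76), with some overlap. PA lay at 2.6 to 6.51 CPM (median 4.39) and HTHA at 1.44 to 6.54 CPM (median 3.74). The log2FC against the mean of the others was 5.03 ± 0.18 (FDR = 6.02e-50) in HIP, 4.14 ± 0.21 (FDR = 5.14e-36) in AMY, 2.96 ± 0.24 (FDR = 1.74e-21) in PA and 2.62 ± 0.24 (FDR = 5.65e-17) in HTHA. The cortex, at 1.93 ± 0.435 CPM, was also called higher on the log scale of the fit. STR, MO and VTA had 1.23 ± 0.395, 1.22 ± 1.53 and 0.96 ± 0.50 CPM, MO with 4.86 CPM in Rhesus 8 and at most 1.28 CPM in the others. NPY2R was near absent from CB, with 2 reads over the 8 animals, where NPY1R had 1109 and NPY5R 134. THA, PIT, SN, GP, OB, PON and CC had means of 0.127 to 0.484 CPM. The THA mean, the upper of these, rested on Rhesus 8 at 2.55 CPM, and without that animal it was 0.189 CPM. The MO mean without the same animal was 0.702 CPM. CB, CC, GP, OB, PIT, PON and SN were called lower.

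LEPR, the receptor for leptin, was highest in HIP, at 8.7 to 19.1 CPM (median 13.4), and second in HTHA, at 3.94 to 11.7 CPM (median 8.48), the region best known for it. The 2 groups overlapped. They were the only region groups called higher than the mean of the others for LEPR, with log2FC of 2.07 ± 0.15 (FDR = 1.94e-24) and 1.27 ± 0.17 (FDR = 8.42e-10). AMY and PA followed with 5.9 ± 1.56 and 5.42 ± 1.31 CPM, then 4.63 ± 1.75 in SN, 4.59 ± 2.68 in MO, 4.35 ± 1.13 in CC, 3.8 ± 1.07 in VTA and 3.65 ± 2.88 in PIT. The remaining means were 2.91 ± 1.09 in PON, 2.62 ± 1.17 in THA, 2.28 ± 0.595 in GP, 2.1 ± 0.567 in cortex, 2.09 ± 0.665 in STR, 1.77 ± 0.824 in OB and 1.07 ± 0.544 in CB, of which CB and OB were called lower, OB not without Rhesus 4 (log2FC -0.99, FDR = 5.38e-05). LEPR is known to be high in choroid plexus, so 7 markers of that tissue (TTR, FOLR1, CLIC6, AQP1, SLC4A5, KL and OTX2) were summed beside it, and none was at 0 in any group. Their sum was 78.1 to 540.1 CPM (median 212) in HIP, 19.5 to 83.8 CPM (median 45.1) in HTHA and 13.8 to 28.1 CPM (median 19.7) in the cortex. It was highest in CC, at 261 to 2703 CPM (median 803), where LEPR was 4.35 ± 1.13 CPM. The part of choroid plexus in the LEPR level was not tested. LEPROT, which shares its first exons with LEPR in the human genome, had a different distribution, highest in CC at 29.4 ± 2.91 CPM (r = 0.36 with LEPR over 51 sub-region means).

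HCRTR1 and HCRTR2, the orexin receptors, differed in spread. HCRTR2 was highest in PON, at 1.16 to 4.29 CPM (median 3.33), HTHA, at 1.05 to 4.87 CPM (median 2.86), VTA, at 0.586 to 7.09 CPM (median 2.1), and THA, at 0.264 to 2.86 CPM (median 1.79). All 4 overlapped and were called higher, with log2FC of 2.28 ± 0.25 (FDR = 4.66e-14), 2.12 ± 0.25 (FDR = 1.78e-12), 1.78 ± 0.27 (FDR = 9.54e-09) and 1.22 ± 0.28 (FDR = 1.18e-04). In VTA, Rhesus 7 stood above the rest at 7.09 CPM. Its means were 1.31 ± 1.17 in MO, 1.1 ± 0.634 in SN, 0.897 ± 0.18 in PA, 0.83 ± 0.453 in GP, 0.73 ± 0.314 in AMY, 0.675 ± 0.156 in cortex and 0.526 ± 0.302 in OB, and it was called lower in HIP, STR, PIT, CB and CC, at 0.338, 0.278, 0.277, 0.222 and 0.0938 CPM on average.

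HCRTR1 was close to even over the brain. Its group means ran from 12.2 ± 1.46 CPM in GP to 18.1 ± 1.24 CPM in the cortex, and PON lay at 17.7 ± 3.7 CPM. It differed between groups (edgeR F test over the 16 groups, FDR = 2.00e-06), but every group was within a log2FC of 0.31 of the mean of the others. CC, which is white matter, and PIT had 13.8 ± 2.93 and 16 ± 1.79 CPM, while the neuronal markers there summed to medians of 373 and 483 CPM against 10899 CPM in the cortex. PEF1, the gene next to HCRTR1 in the RefSeq annotation of T2T-MMU8v2.0, was even as well, at 49.4 to 73.1 CPM over the sub-region means, and its r with HCRTR1 over the 51 sub-regions was 0.88. Whether reads of PEF1 were counted on HCRTR1 was not tested.

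HTHA, where several of the peptides are made, was then set against the cortex in the same fit. Of the 9 receptors, 3 were called higher in HTHA (MC4R, LEPR and HCRTR2) and 2 lower (MCHR1 and MCHR2). Over all genes tested, 11.0% were called higher and 7.62% lower. MC4R lay at 1.6 to 14 CPM (median 6.57) in HTHA and at 0.67 to 1.45 CPM (median 0.909) in the summed cortex, and these values did not overlap. Its lowest HTHA value was that of Rhesus 6. The log2FC, HTHA minus cortex, was 2.70 ± 0.41 (FDR = 8.40e-09) for MC4R, 2.08 ± 0.35 (FDR = 2.18e-07) for HCRTR2 and 1.95 ± 0.26 (FDR = 1.20e-10) for LEPR, and the values of HCRTR2 and LEPR did not overlap either. Each cortical value was a sum over 31 sub-regions, which can narrow the range. Sums by lobe, scaled apart, reached 1.9 CPM of MC4R (limbic cortex), 1.31 CPM of HCRTR2 (frontal lobe) and 4.34 CPM of LEPR (occipital lobe). Those lie above the lowest HTHA values. The share of all genes without overlap is not given here. MCHR1 had a log2FC of -1.39 ± 0.24 (FDR = 5.95e-07), and its highest HTHA value, 16.5 CPM, came from Rhesus 6, the animal with cortical markers in this sample. MCHR2 had a log2FC of -5.54 ± 0.64 (FDR = 2.34e-12), from 10 reads over the 8 HTHA samples. Leaving out Rhesus 6 gave 2.78 for MC4R, 1.98 for LEPR, 2.12 for HCRTR2, -1.63 for MCHR1 and -5.70 for MCHR2, with the same calls. Leaving out Rhesus 11 gave 2.66 for MC4R, 2.09 for LEPR, 2.08 for HCRTR2, -1.35 for MCHR1 and -5.50 for MCHR2, again with the same calls. Markers of cell types differed in the same contrast. All 6 oligodendrocyte markers were called higher in HTHA, with log2FC of 1.71 (CNP) to 2.29 (MOBP). The 3 cortical excitatory neuron markers were called lower, with -3.41 for TBR1, -4.08 for NEUROD6 and -4.56 for SLC17A7. Of 6 neuronal markers, SYT1, SNAP25 and RBFOX3 were called lower, with -1.44, -1.80 and -2.06, and STMN2, GAD1 and GAD2 were not called. The part of these differences in the receptor values was not tested. The values of the 4 uncalled receptors were 0.86 ± 0.32 (FDR = 0.0169) for NPY2R, -0.53 ± 0.21 (FDR = 0.0251) for NPY1R, -0.33 ± 0.10 (FDR = 0.00266) for HCRTR1 and -0.12 ± 0.22 (FDR = 0.645) for NPY5R.

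The list of 9 feeding peptide genes held 8 that encode ligands or ligand precursors of these receptor families and CARTPT, whose peptide is not known as a ligand of them. Of the 4 ligand genes tested, 3 were called higher in HTHA, and CARTPT was as well. PMCH, the precursor of melanin-concentrating hormone, lay at 1.69 to 1653 CPM (median 535) in HTHA with a log2FC against the cortex of 13.30 ± 0.58 (FDR = 6.25e-40). HCRT, the precursor of the orexins, lay at 2.74 to 295 CPM (median 168) with a log2FC of 8.75 ± 0.39 (FDR = 2.56e-39). For both, Rhesus 11 was the lowest animal, and without it the log2FC was 13.53 for PMCH and 9.10 for HCRT. CARTPT, the precursor of another feeding peptide, lay at 21.3 to 187 CPM (median 112), with a log2FC of 3.81 ± 0.53 (FDR = 9.39e-10). POMC lay at 1.88 to 28.1 CPM (median 11.7), with a log2FC of 2.77 ± 0.30 (FDR = 8.75e-14), far below its 8459 ± 1677 CPM in PIT, where it encodes the precursor of ACTH. Without Rhesus 11 the log2FC of POMC was 3.56, and without Rhesus 6, whose HTHA sample held cortical markers, it was 2.445. Leaving out Rhesus 6 gave 13.47 for PMCH, 8.97 for HCRT and 3.86 for CARTPT. NPY did not differ by the test, with -0.19 ± 0.33 (FDR = 0.66). Its highest groups were STR at 111 ± 22.4 CPM and AMY at 76 ± 17.2 CPM. PYY, PPY and LEP, the peptides of gut, pancreas and fat tissue, had group means of at most 0.261 CPM and were not tested, and AGRP was not analysed here. None of the 4 tested genes of leptin signalling passed both thresholds: STAT3 had a log2FC of 0.66 ± 0.09 (FDR = 7.54e-10), PTPN1, a phosphatase that limits the signal, -0.50 ± 0.08 (FDR = 2.39e-08), JAK2 -0.12 ± 0.12 (FDR = 0.398) and SOCS3 -0.12 ± 0.39 (FDR = 0.811). The same held for both tested genes of the list of receptor partners, LEPROT with 0.72 ± 0.15 (FDR = 3.54e-05) and LEPROTL1 with -0.46 ± 0.10 (FDR = 3.13e-05). Of the 4 other receptors of these families listed, MC2R and NPY4R had a row and both were too low to be tested.

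**Figure D2:**
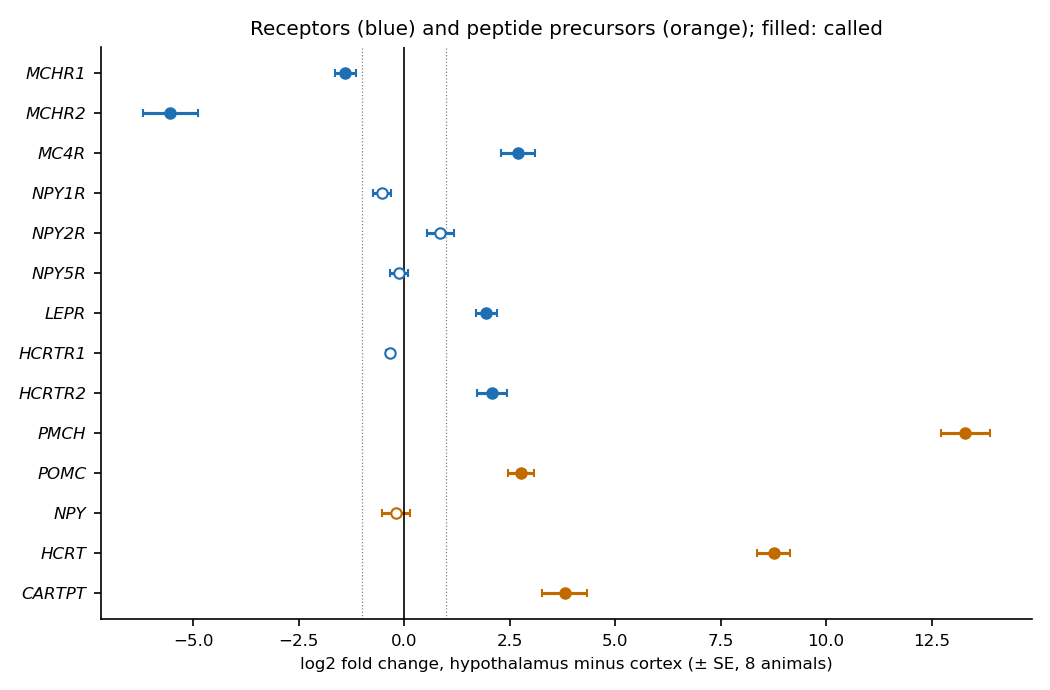
Log2 fold change between HTHA and cortex (horizontal axis, positive where HTHA is higher, bars are SE, 8 animals) of the 9 receptors in blue and of the 5 feeding peptide genes tested in orange. Filled points were called at FDR < 0.05 and an absolute log2FC above 1 (dotted lines): MC4R, LEPR and HCRTR2 lie to the right with PMCH, HCRT, CARTPT and POMC, and MCHR1 and MCHR2 lie to the left.

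Within the cortex, 8 of 9 receptors differed between the 31 sub-regions at FDR < 0.05 with a fold above 2 between the highest and the lowest fitted sub-region, HCRTR1 being the exception. Of all genes tested, 24% did so. The span was widest for MCHR2, 16.3-fold (FDR = 7.65e-46). It was highest in the medial orbital gyrus (MOG), at 8.02 to 22.8 CPM (median 10.3), and in the anterior superior frontal gyrus (ASFG), at 5.01 to 19 CPM (median 13.1). The ventromedial prefrontal cortex (vmPFC), middle frontal gyrus (MFG), anterior cingulate gyrus (ACG), inferior frontal gyrus (IFG) and temporal polar gyrus (TPG) followed with 10.4, 10.3, 10.2, 9.01 and 8.96 CPM on average. The superior precentral gyrus (SPrCG), also of the frontal lobe, had 2.88 ± 0.987 CPM. The lowest level was in the posterior superior occipital gyrus (pSOG), at 0 to 1.64 CPM (median 0.868), with no overlap with MOG or ASFG.

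NPY1R and NPY5R spanned 4.5-fold and 4.38-fold (FDR = 6.02e-61 and 3.15e-55), both from pSOG upwards. NPY1R had 15.7 ± 6.76 CPM in pSOG and 68.3 ± 12 CPM in TPG, and NPY5R 3.82 ± 0.859 CPM in pSOG and 16.6 ± 3.06 CPM in IFG. MC4R was highest in the parahippocampal gyrus (HG, 2.09 ± 0.686 CPM) and lowest in the anterior superior occipital gyrus (aSOG, 0.39 ± 0.304 CPM), a fold of 5.29. HCRTR2 spanned 4.18-fold, from 0.275 ± 0.128 CPM in the inferior occipital gyrus (IOG) to 1.14 ± 0.458 CPM in TPG. MCHR1 was more even than MCHR2, at 13.9 ± 3.54 CPM in pSOG and 29.7 ± 3.69 CPM in SPrCG, a fold of 2.18. NPY2R and LEPR spanned 2.59-fold and 2.24-fold, and LEPR was highest in pSOG, where NPY1R, NPY5R, MCHR1 and MCHR2 were lowest. The range of HCRTR1 was 1.42-fold, and the median over all genes 1.58-fold.

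The counts of the cortical sub-regions were also summed by lobe, and each of 5 lobes was set against the mean of the other 4 at FDR < 0.05 and a fold above 1.5. Of 45 pairs of a receptor and a lobe, 5 (11.1%) were called higher and 7 (15.6%) lower, against 2.36% and 2.33% of the pairs of all genes. In the occipital lobe, 6 receptors were called lower. The 2.33% of all genes is over the 5 lobes together, and the share for the occipital lobe alone is not given here. The 3 cortical excitatory neuron markers summed there to 559.6 to 736 CPM (median 630.5), below every value of the other lobes, whose lowest was 771 CPM, in the parietal lobe. The 6 neuronal markers summed to 11628 to 13165 CPM (median 12332) in the occipital lobe, the highest median of the 5, against 8641 to 10060.2 CPM (median 9593) in the frontal lobe, the lowest. The part of these markers in the receptor levels was not tested. NPY1R lay at 12.5 to 24 CPM (median 18.1) in the occipital lobe, below all values of the other lobes, with a log2FC of -1.26 ± 0.07 (FDR = 8.85e-18). NPY5R lay at 3.9 to 6.1 CPM (median 4.82), also without overlap (log2FC -1.32 ± 0.07, FDR = 2.85e-18). MCHR2 had a log2FC of -1.72 ± 0.21 (FDR = 1.47e-08), MC4R of -1.38 ± 0.17 (FDR = 1.06e-08), HCRTR2 of -0.99 ± 0.22 (FDR = 2.60e-04) and MCHR1 of -0.62 ± 0.05 (FDR = 3.91e-12). MCHR2 was higher in the frontal lobe, at 4.78 to 10.1 CPM (median 8.45), with a log2FC of 1.58 ± 0.14 (FDR = 5.72e-11), and in the limbic cortex (log2FC 0.77 ± 0.16, FDR = 6.21e-04), and lower in the parietal lobe (log2FC -0.60 ± 0.17, FDR = 0.0193). MC4R was higher in the temporal lobe (log2FC 0.82 ± 0.12, FDR = 4.88e-06) and in the limbic cortex (log2FC 0.66 ± 0.12, FDR = 1.59e-04), and HCRTR2 in the frontal lobe (log2FC 0.63 ± 0.15, FDR = 6.10e-04). NPY2R, LEPR and HCRTR1 had no call. The calls of MCHR2 in the parietal lobe and of MC4R in the limbic cortex were lost without the animal as a block, with FDR of 0.213 and 0.0718. Single animals decided some calls: MCHR2 in the parietal lobe was not called without Rhesus 6 (log2FC -0.44, FDR = 0.0817) or Rhesus 7 (log2FC -0.56, FDR = 0.0315), MC4R in the limbic cortex without Rhesus 7 (log2FC 0.58, FDR = 0.00139), HCRTR2 in the frontal lobe without Rhesus 10 (log2FC 0.54, FDR = 0.00504) and MCHR1 in the occipital lobe without Rhesus 10 (log2FC -0.58, FDR = 2.65e-10).

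**Figure D3:**
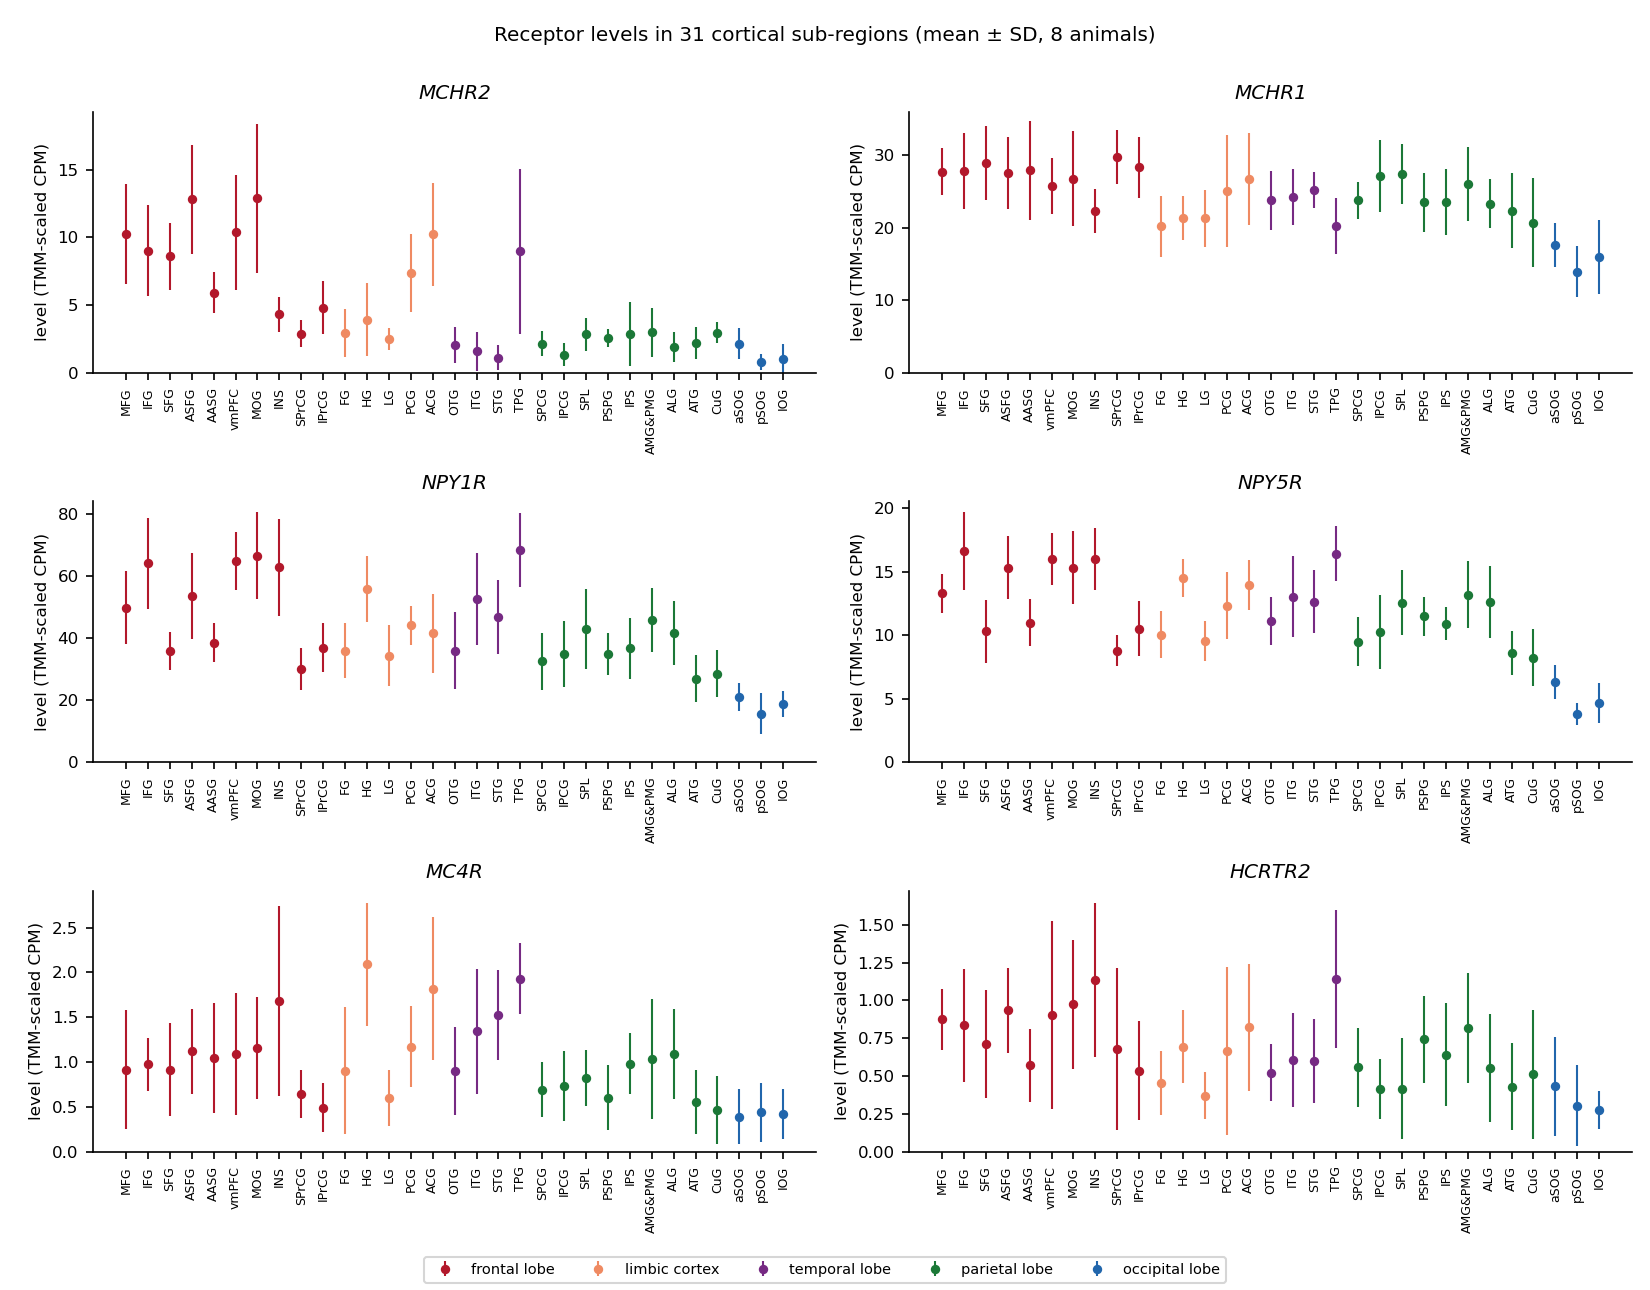
Level of 6 receptors (vertical axis, TMM-scaled CPM, linear and starting at 0) in 31 cortical sub-regions (horizontal axis, coloured by lobe), as the mean of 8 animals with SD bars. MCHR2 was highest in MOG and ASFG of the frontal lobe, and in the 3 occipital sub-regions on the right NPY1R and NPY5R were at their lowest.

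Among the 3 striatal sub-regions, 1 of the 7 receptors that passed the filter on low counts was called for a sub-region, MCHR1, over 2-fold above both others in CN (3.21% of all genes were called for a striatal sub-region). CN lay at 3.8 to 28.3 CPM (median 14), ACb at 2.51 to 7.33 CPM (median 5.23) and PUT at 0.731 to 12.7 CPM (median 3.55). The ranges overlapped, but CN was above ACb and PUT in each animal. The log2FC was -1.36 ± 0.27 (FDR = 8.15e-04) for ACb minus CN and 1.63 ± 0.27 (FDR = 1.57e-04) for CN minus PUT. The gap of CN to the next sub-region was 1.39 without Rhesus 3 and 1.43 without Rhesus 10, whose PUT and ACb samples held cortical markers. ACb led for the neuropeptide Y receptors without passing the fold of 2 against CN. NPY1R lay at 60.4 to 121 CPM (median 82.3) in ACb, with log2FC of 0.83 ± 0.17 (FDR = 0.00122) against CN and 1.40 ± 0.18 (FDR = 2.08e-06) against PUT. NPY2R was 2.08 ± 0.922 CPM in ACb, 1.24 ± 0.604 CPM in CN and 0.214 ± 0.308 CPM in PUT, where 15 reads were counted in all, and ACb minus PUT was 3.37 ± 0.48 (FDR = 9.69e-06). Its gap of ACb to CN passed 2-fold without Rhesus 3 (1.00 on the log2 scale), which made 2 receptors called. The edgeR F test over the 3 sub-regions, not of ACb against CN alone, then gave FDR = 5.76e-05. NPY5R was more even, with 0.77 ± 0.10 (FDR = 5.48e-06) for ACb minus PUT.

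MCHR2 in ACb lay at 0.752 to 5.36 CPM (median 1.78), with Rhesus 10, whose sample held cortical markers, as the highest. In PUT it lay at 0.366 to 4.47 CPM (median 0.925), the highest being Rhesus 3, whose sample held them too. It did not pass the test over the 3 sub-regions (FDR = 0.0539). The fitted gap of ACb to the next sub-region, 0.86 on the log2 scale, was 0.50 without Rhesus 10 and 0.80 without Rhesus 3. The test over the 3 sub-regions gave FDR = 0.225 without Rhesus 10 and FDR = 0.0155 without Rhesus 3. MC4R and HCRTR2 did not pass the filter on low counts in the striatum. Under the detection rule of the study, a count above 1 in at least 3 samples, both were tested and called for ACb. Their gaps to the next sub-region were 2.16 and 1.07 on the log2 scale. The test over the 3 sub-regions, not of ACb against the next alone, gave FDR = 8.11e-05 and FDR = 0.0329. This made 3 of 9 receptors called against 4.09% of all genes. MC4R was 1.59 ± 0.978 CPM in ACb, 0.349 ± 0.228 CPM in CN and 0.238 ± 0.265 CPM in PUT. LEPR was 2.56 ± 0.858 CPM in CN, 1.9 ± 0.903 CPM in PUT and 1.74 ± 0.536 CPM in ACb, with -0.54 ± 0.17 (FDR = 0.0218) for ACb minus CN.

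Of the 6 receptors tested within the hippocampus, NPY1R was called, for DG (0.683% of all genes were called for a hippocampal sub-region). DG, the dentate gyrus, lay at 195 to 464 CPM (median 334), CA1 at 73.1 to 204 CPM (median 164) and CA3 at 38.5 to 234 CPM (median 135). DG overlapped with the upper values of the other 2, and the log2FC was -1.19 ± 0.24 (FDR = 0.00111) for CA1 minus DG and -1.41 ± 0.24 (FDR = 3.68e-04) for CA3 minus DG. NPY5R followed the same order over DG, CA1 and CA3 with 25.4 ± 4.5, 18.9 ± 2.62 and 15.2 ± 3.89 CPM, but within 2-fold (-0.76 ± 0.13 for CA3 minus DG, FDR = 4.15e-04). MCHR1 was lower in DG, at 0.833 to 2.99 CPM (median 1.45), than in CA1, at 1.05 to 10.1 CPM (median 4.3), with a log2FC, CA1 minus DG, of 1.53 ± 0.38 (FDR = 0.00474). LEPR did not differ by a fold of 2, with 14.9 ± 3.57 CPM in CA3, 14.1 ± 3.32 in DG and 10.7 ± 4.95 in CA1, while the choroid plexus markers had medians of 109, 334 and 62.6 CPM. NPY2R was 19.7 ± 6.32, 17 ± 6.97 and 12.7 ± 5.04 CPM in DG, CA1 and CA3, without a difference past the test over the 3 (FDR = 0.0758). PROX1, a marker of dentate granule cells, had medians of 32.5 CPM in DG, 20.9 CPM in CA1 and 19.7 CPM in CA3.

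**Figure D4:**
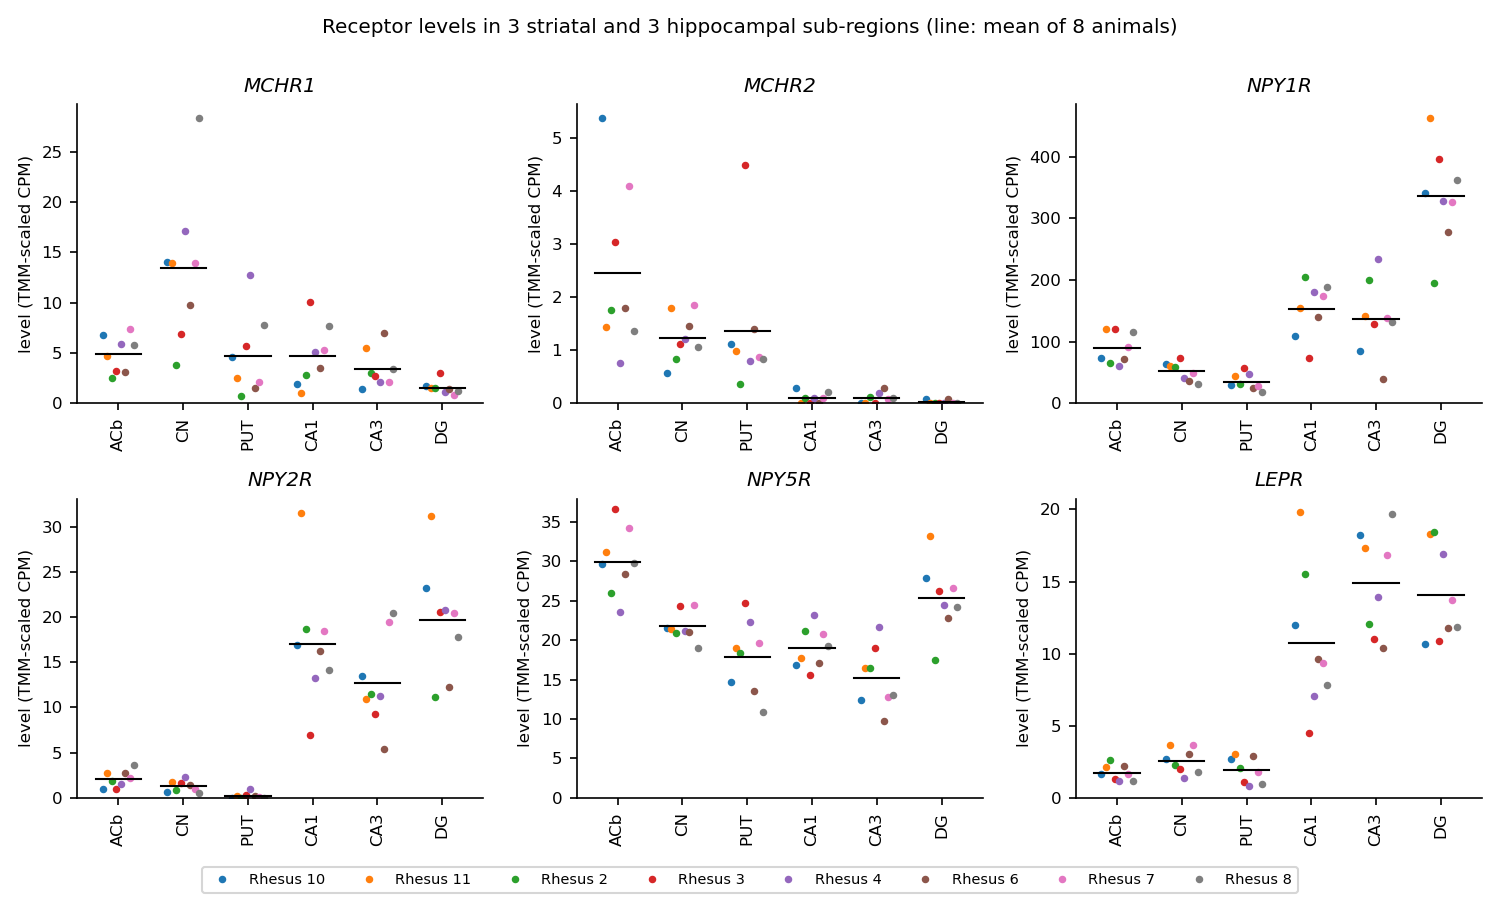
Level of 6 receptors (vertical axis, TMM-scaled CPM, linear and starting at 0) in 3 striatal (ACb, CN, PUT) and 3 hippocampal (CA1, CA3, DG) sub-regions, 1 point per animal, with a line at the mean. MCHR1 was highest in CN, NPY1R in DG and NPY5R in ACb, and MCHR2 was nearly absent from the hippocampal sub-regions.

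CA1 and the posterior cingulate gyrus (PCG) were compared because the study paired them for its chromatin assay, in which it named MCHR2, so the difference in MCHR2 was known beforehand. Of 7 receptors tested, 3 were higher in CA1 and 2 lower, against 4.71% and 4.62% of all genes. NPY2R lay at 6.98 to 31.6 CPM (median 16.6) in CA1 and 0.097 to 3.57 CPM (median 1.55) in PCG, without overlap, and its log2FC, CA1 minus PCG, was 3.49 ± 0.33 (FDR = 2.44e-06). LEPR lay at 4.49 to 19.8 CPM (median 9.48) and 0.097 to 3.16 CPM (median 2.14), also apart, with 2.40 ± 0.27 (FDR = 1.44e-05). NPY1R was higher in CA1 by 1.75 ± 0.18 (FDR = 4.48e-06), and NPY5R, at 0.63 ± 0.14 (FDR = 0.00295), stayed within 2-fold. MCHR1 was lower in CA1, with -2.56 ± 0.23 (FDR = 1.70e-06). MCHR2 had 9 reads over the CA1 samples and 658 over the PCG samples, with -6.04 ± 0.36 (FDR = 3.33e-08).

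Age and sex were tested within each region group, 4 animals against 4. At FDR < 0.1 and an absolute log2FC above 1, none of the 115 pairs of a receptor and a region group tested was called for age or for sex by edgeR. Of the pairs of all genes, 0.0166% were called for age and 0.102% for sex. At an unadjusted p below 0.05 there were 7 receptor pairs for age (6.09%) and 4 for sex (3.48%), against 5.76% and 3.63% of the pairs of all genes, so the receptors were near the background in both. The values of the pairs with the clearest separation are given as a description. MCHR1 in STR was 2.48 to 7.19 CPM in the mid-aged and 7.78 to 14.7 CPM in the young animals, without overlap (log2FC, mid-aged minus young, -1.14 ± 0.31, FDR = 0.872). MC4R in MO was 0 to 0.797 CPM in the mid-aged and 2.04 to 7.07 CPM in the young animals, again without overlap (-3.48 ± 0.84, FDR = 0.435), and the mid-aged Rhesus 6, whose MO sample held few neuronal transcripts, had no count. The young Rhesus 8, the highest, had the dopamine neuron markers at 48.4 CPM against 1.55 to 20.0 CPM in the other MO samples. The log2FC of MC4R was -3.08 without Rhesus 6 (FDR = 0.342) and -2.95 without Rhesus 8 (FDR = 0.687), and that of NPY2R in MO, -2.05 with all animals, was -1.77 and -1.23. The part of the markers was not tested. DESeq2 called 2 age pairs, MCHR1 in STR at FDR = 0.0756 and MC4R in MO at FDR = 0.0045, and 0.321% of the pairs of all genes, while it called no receptor for sex. NPY1R in PON was 12.1 to 15.8 CPM in the mid-aged and 20.7 to 32.8 CPM in the young animals (-0.82 ± 0.20, FDR = 1). The other age pairs were NPY1R in PA, MCHR1 in CB, NPY2R in MO and MC4R in VTA, and the sex pairs were NPY5R in PIT, NPY1R in VTA and MO, and MC4R in OB, with FDR of at least 0.225. LEPR in PIT was 3.52 to 5.09 CPM in females, 9.41 CPM in the male Rhesus 7 and 0.795 to 1.25 CPM in the other males, and without Rhesus 7 it was called for sex (log2FC, female minus male, 2.19, FDR = 0.00325), when 0.922% of all pairs were.

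**Figure D5:**
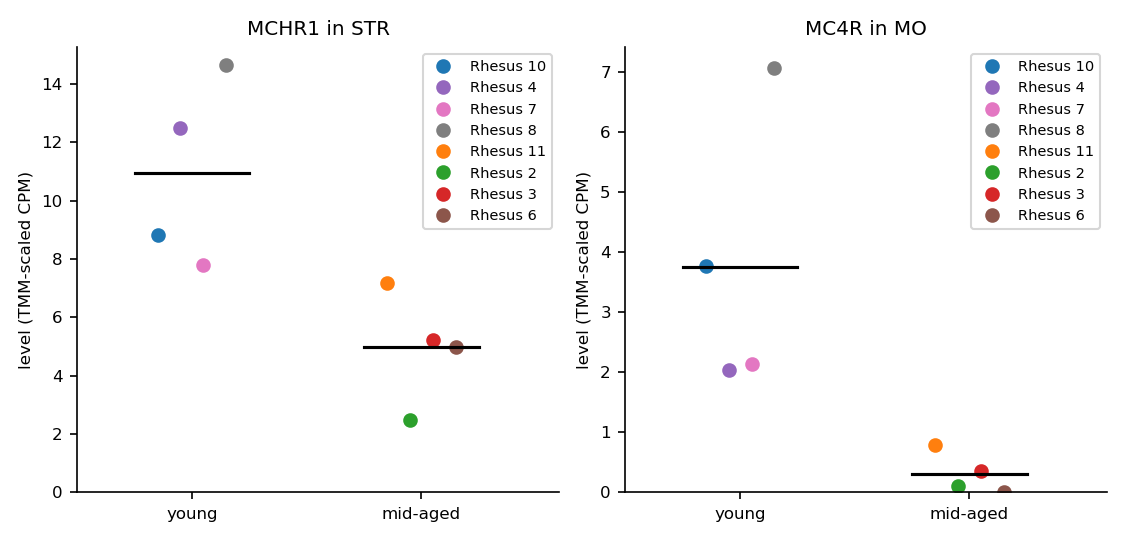
Level (vertical axis, TMM-scaled CPM, linear and starting at 0) of MCHR1 in STR on the left and of MC4R in MO on the right in 4 young and 4 mid-aged animals, each named, with a line at the group mean. In both panels every mid-aged animal lies below every young one, and neither difference passed the test of edgeR after adjustment.

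The genes whose sub-region means ran most like those of each receptor were ranked by Pearson's r of log2(CPM + 1) over the 51 sub-regions, among 13640 genes with a symbol and a mean of at least 1 CPM in some sub-region. The sub-regions share animals, and 31 of them are cortical, so these r are descriptions. For MCHR1 they were RGS4 (r = 0.96), IER5L (r = 0.95), NHSL3 (r = 0.93). For MCHR2 they were SPINK5 (r = 0.84), MEOX1 (r = 0.83), FREM3 (r = 0.83), and MCHR2 itself had r = 0.76 with MCHR1. MC4R was most like SOHLH2 (r = 0.80), DDC (r = 0.79), NTSR1 (r = 0.77), of which DDC encodes the enzyme that makes dopamine and serotonin from their precursors. NPY1R and NPY5R were in each other's lists, with NPY5R (r = 0.93), ZNF831 (r = 0.90), mml-mir-628 (r = 0.90) for NPY1R and SDCBP2 (r = 0.94), NPY1R (r = 0.93), CYP46A1 (r = 0.91) for NPY5R. NPY2R was most like SLC25A17 (r = 0.85), CLSPN (r = 0.85), MYCL (r = 0.85). LEPR was most like CHRNB4 (r = 0.85), OSCAR (r = 0.85), MALRD1 (r = 0.83), HCRTR1 like FASTKD5 (r = 0.89), GPCPD1 (r = 0.88), FBLN7 (r = 0.88), and HCRTR2 like EFCAB3 (r = 0.82), PIP5KL1 (r = 0.82), MINAR1 (r = 0.81).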

How the data were processed

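Total RNA of 51 sub-regions from 8 animals was depleted of ribosomal RNA and sequenced by the authors with a directional kit. The deposited values are raw read counts per gene, made by the authors with Trim Galore 0.4.4, HISAT2 2.0.5 and HTSeq 0.6.1 on Mmul 8.0.1 with Ensembl 91 genes. The strand option and the treatment of overlapping genes are not given in the sources used here. The total count was 7784678 to 31083490 per sample. The 8 midbrain samples were not in the table and were not analysed here, and 33 chromatin accessibility samples were not used. Genes were named through the RefSeq table of T2T-MMU8v2.0, and NPY1R through the symbols in a supplement of the study. The members and lists were chosen with earlier results of these data known. Of the markers of cortical excitatory neurons listed, 1 is not reported here, and sums are over the 3 others that matched a row.

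Counts were summed by region group or lobe per animal. Genes that passed filterByExpr were fitted with the quasi-likelihood test of edgeR 4.0.16 in R 4.3.3, with TMM scaling, the animal as a block and Benjamini-Hochberg adjustment (FDR) over all genes of a contrast. Age (covariate sex) and sex (covariate age) were fitted within each region group. DESeq2 1.42.0 served as an alternative. The SE is the log2FC over the root of F. Samples with the same number came from the same animal, as the labels state, so the numbers pair them. The animals are separate, but each gave 1 sample per sub-region, so dissection and animal cannot be told apart. Named genes were all receptors, the 3 genes most like each in pattern, and ligand and pathway genes called in HTHA against the cortex or described by region. The scripts were tested on simulated data.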

Additional observations from a re-analysis of the deposited data

Results flagged for a closer look

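In 10 of 147 sets of 8 animals with a mean of at least 1 CPM, 1 animal stood apart from the rest, with a gap to the nearest animal above 0.526 of the whole range (the critical value of Dixon's test at 95%). For normally distributed values chance gives about 1 in 20 such sets, and the distribution was not checked here. The mean of a set included the animal apart. For NPY2R in MO the mean was 0.702 CPM without Rhesus 8, so that set entered only through this animal. The rate of 1 in 20 may thus not hold for these sets. Beside each value stands the number of 15 marker lists whose sum in that sample lay outside the range of the other animals, with the values of 1 or 2 of those lists. In every list 1 of the 8 animals is highest and 1 lowest, so several lists outside are usual for any sample. The counts were not set against those of other samples, and the lists shown were picked among those outside. MCHR2 in PUT was 4.47 CPM in Rhesus 3, above the 0.366 to 1.4 CPM of the others, with 6 lists outside, among them the 3 cortical excitatory neuron markers at 135 CPM against 0.446 to 5.51 CPM and the neuronal markers at 6580.3 CPM against 4521 to 5886 CPM. NPY1R in GP was 19.2 CPM in Rhesus 3, above the 5.94 to 11.4 CPM of the others, with 5 lists outside, among them the striatal markers at 569.9 CPM against 209 to 249.6 CPM. NPY2R in MO was 4.86 CPM in Rhesus 8, above the 0.0815 to 1.28 CPM of the others, with 6 lists outside, among them the dopamine neuron markers at 48.4 CPM against 1.55 to 20.0 CPM and the neuronal markers at 6855 CPM against 259.6 to 6803 CPM. HCRTR1 in PIT was 12.1 CPM in Rhesus 8, below the 15.6 to 17.8 CPM of the others, with 5 lists outside, among them the hypothalamic markers at 24.2 CPM against 0 to 6.46 CPM. NPY1R in CC was 7.24 CPM in Rhesus 4, above the 1.89 to 4.2 CPM of the others, with 3 lists outside, among them the neuronal markers at 657 CPM against 214 to 593 CPM. LEPR in AMY was 2.32 CPM in Rhesus 3, below the 5.31 to 7.08 CPM of the others, with 5 lists outside, among them the neuronal markers at 8820.1 CPM against 7307 to 8688 CPM and the oligodendrocyte markers at 4855 CPM against 2901 to 4702 CPM. MCHR2 in PCG was 13.8 CPM in Rhesus 7, above the 4.36 to 8.65 CPM of the others, with 4 lists outside, among them the neuronal markers at 11734 CPM against 8779.7 to 10255 CPM and the oligodendrocyte markers at 3567 CPM against 1545 to 2058 CPM. MC4R in PA was 6.35 CPM in Rhesus 3, above the 1.08 to 3.46 CPM of the others, with 5 lists outside, among them the neuronal markers at 9232 CPM against 7395 to 8487 CPM and the striatal markers at 122 CPM against 131 to 209 CPM. MCHR1 in DG was 2.99 CPM in Rhesus 3, above the 0.833 to 1.7 CPM of the others, with 1 list outside, the hypothalamic markers at 1.2 CPM against 0 to 0.497 CPM. HCRTR2 in VTA was 7.09 CPM in Rhesus 7, above the 0.586 to 3.47 CPM of the others, with 2 lists outside, the thalamic markers at 14.3 CPM against 4.57 to 11.1 CPM and the choroid plexus markers at 52.9 CPM against 54.6 to 89.7 CPM, and the same sample had the highest MCHR2 of VTA. Rhesus 3 was the animal apart in 5 of the 10 sets. The part of the marker differences in these values was not tested.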

How the results depend on the processing

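The counts of receptors called were recomputed with DESeq2 size factors, with the detection rule of the study (a count above 1 in at least 3 samples), without the animal as a block, with DESeq2, without the covariate of the age and sex tests and without each animal. No log2FC that was compared reversed its direction. These were called contrasts of region groups and lobes, HTHA against the cortex, CA1 against PCG, and age or sex pairs at unadjusted p below 0.05. Gaps to the next group and cortical ranges cannot be negative, so a reversal could not show in them. With DESeq2, 2 receptor pairs were called for age and 0 for sex, against 0 and 0 with edgeR. Leaving out 1 animal gave 0 to 1 for sex, the higher count without Rhesus 7, and 0 to 0 for age. Within the striatum, 3 receptors were called under the detection rule of the study, which let MC4R and HCRTR2 be tested and called for ACb beside MCHR1. Leaving out 1 animal gave 1 to 2 there, the higher count without Rhesus 3, when NPY2R was called for ACb. The other counts stayed within 1.5 times under the settings run for each: leaving out 1 animal gave 38 to 43 pairs of a receptor and a region group higher and 33 to 35 lower and 2 to 3 receptors called for a single region group, and the counts of receptors higher and lower in HTHA than in the cortex stayed 3 and 2 throughout. Of 73 receptor pairs called between region groups, 66 kept their call in every setting, and of 12 called between lobes 8 did in the settings run for lobes. Those lost are named with the results, and MCHR2 in the parietal lobe was also lost under the detection rule (log2FC -0.58).

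Same-numbered samples came from the same animal. Without the replicate block, 39 pairs were called higher between region groups and 34 lower, and beside the lobe calls named above LEPR lost its call over the cortical sub-regions (log2 range 1.09, FDR = 0.115). No other call was changed by the block. Levels near or below 1 CPM rested on few reads, so for MC4R, NPY2R, MCHR2 and HCRTR2 small differences between the low groups were not detectable at this depth.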

Other observations

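LEPR was lowest in Rhesus 4 in 8 of 16 region groups, which came from different dissections of the same animal. The same animal was lowest for LEPROT in 11, for JAK2 in 11 and for STAT3 in 10 of the 16 groups. Counts for LEPROTL1, SOCS3 and PTPN1 are not given here. Among the pairs of all genes and groups with a mean of at least 1 CPM, Rhesus 4 was lowest in 17.1% and highest in nearly as many. Whether its low level was particular to LEPR was not tested. HCRTR1 was highest in Rhesus 10 in 7 of 16 region groups and lowest in Rhesus 3 in 5, where 10.2% and 13.2% of the pairs of all genes were so. These patterns were noticed in the data and were not tested.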
